A study of Mus musculus with 4 samples.

Results

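Pyk2, encoded by Ptk2b, and 9 genes of the focal adhesion scaffold were described in mouse embryonic fibroblasts with and without focal adhesion kinase (FAK). The members were Ptk2b, Src, Pxn, Tgfb1i1, Bcar1, Asap1, Tln1, Tln2, Vcl and Zyx, and every probe set that the platform annotation pairs with 1 of these genes alone was taken. That gave 23 of the 45037 probe sets on the array, with 1 probe set for Tgfb1i1, 2 each for 5 genes and 3 each for 4 genes. Focal adhesions are the plaques where integrins bind matrix outside the cell and are tied to actin inside it. FAK and Pyk2 are related tyrosine kinases of these plaques that work with Src to phosphorylate adaptors such as paxillin and p130Cas, while talin, vinculin and zyxin carry the link to actin. Pyk2 also responds to calcium and to G protein-coupled receptors, the class to which the endothelin receptors belong.

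The 4 groups were FAK-/- fibroblasts treated with endothelin-1 (ET-1), FAK-/- fibroblasts left untreated, FAK+/+ fibroblasts treated with ET-1 and FAK+/+ fibroblasts left untreated, with 1 Affymetrix Mouse Genome 430 2.0 array each. All were embryonic fibroblasts at passage 5 that were held without serum for 24 h before the 24 h with or without ET-1, and the labels name no further line, clone or embryo of either genotype and no dose of ET-1. Knockout and wild type below mean FAK-/- and FAK+/+ cells. Values are the deposited log2 signals, so 1 unit is a 2-fold difference, and levels of different probe sets are not comparable with each other. With 1 array per group, a difference between 2 arrays has no replicate check.

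Several measurements of the whole series touch these values. The gap between 3′ and 5′ signals of Gapdh, a measure of RNA and labelling quality, was 3.79 (log2) for wild type after ET-1 and 0.85 to 0.90 for the other arrays, and that of Actb was 1.81 there and 0.66 to 1.30 elsewhere. Hybridisation controls of the ET-1-treated knockout array had a median difference of -0.39 from untreated wild type, against -0.08 and -0.00 for the untreated knockout and ET-1-treated wild-type arrays. The gene of FAK was not analysed here, so the genotype labels were not checked on it. Of 13 fibroblast markers, 9 and 11 read above the median of all values (log2 8.90) in ET-1-treated and untreated knockout cells, against 11 in each wild-type array, and Vim and Col3a1 read 14.16 or more in all 4 arrays. For 9 of the 13 both knockout arrays lay below both wild-type arrays and for 1 above. Over all genes, by the brightest probe set of each, these shares were 28.0% and 25.0%. Thy1, named for the largest averaged difference of the 13 (-5.34), read 6.85 and 8.95 in ET-1-treated and untreated knockout cells, against 13.46 and 13.01 in wild type. Dcn, the 1 that was higher, read 14.60 and 14.47 in the knockout, against 12.73 and 12.64 in wild type. The linear signals of the 13 summed to 91313 and 103472 in the knockout, against 176333 and 162474 in wild type. Such a sum weighs the brightest markers most. All 6 mesothelial markers read above that median in both knockout arrays, against 2 of 6 and 5 of 6 in ET-1-treated and untreated wild type. Their signals on the linear scale summed to 67865 and 77722 in ET-1-treated and untreated knockout cells, against 6552 and 14520 in wild type. Those of 8 epithelial markers summed to 18403 and 24078 in the knockout, against 9132 and 10807 in wild type. Of the 8, 4, among them Krt18, were higher in both knockout arrays than in both wild-type arrays, against 25.0% of all genes. Lower in both were 2, among them Krt19, against 28.0%. The part of these differences between the cultures in the results below was not tested, and in such bulk samples fewer cells of a type and less RNA per cell cannot be told apart.

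In untreated cells, 2 of the 23 probe sets reached 2-fold or more above wild type in the knockout (Ptk2b and a Tln1 probe set), and 3 were below it by as much (Tgfb1i1, Tln2 and an Asap1 probe set). Over all probe sets the shares were 2.56% and 2.81%. After ET-1 the knockout was above by 2-fold or more for 1 probe set, of Ptk2b, and below for 4, of Tgfb1i1, Tln2, Asap1 and Bcar1, against 3.89% and 3.64% of all. At 1.5-fold, 3 were above (6.27% of all) and 5 below untreated (6.19%), and after ET-1 4 were above (8.7%) and 7 below (7.66%). Both knockout arrays lay above both wild-type arrays for 7 probe sets (30.4%, against 23.5% of all probe sets) and below both for 13 (56.5%, against 25.4%), and 3 overlapped. The median difference of the 23 was -0.29 untreated and -0.12 after ET-1, against -0.00 and -0.01 over all probe sets. The sign of the genotype difference was the same in both treatment states for 22 of the 23, against 63.572% of all probe sets, and the exception was the dimmer Src probe set. With array medians subtracted it was the same for 21 and with quantile normalization for 20, because differences near 0 after ET-1 turned sign. For each of the 9 genes with several probe sets, all of them had the same sign of the genotype difference averaged over treatments. Src 1423240_at (-0.02 ± 0.19, SE by limma) and Ptk2b 1442927_at (0.06 ± 0.09) were near 0. The share over all genes with several probe sets was not taken, so the count has no background beside it.

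**Figure D1:**
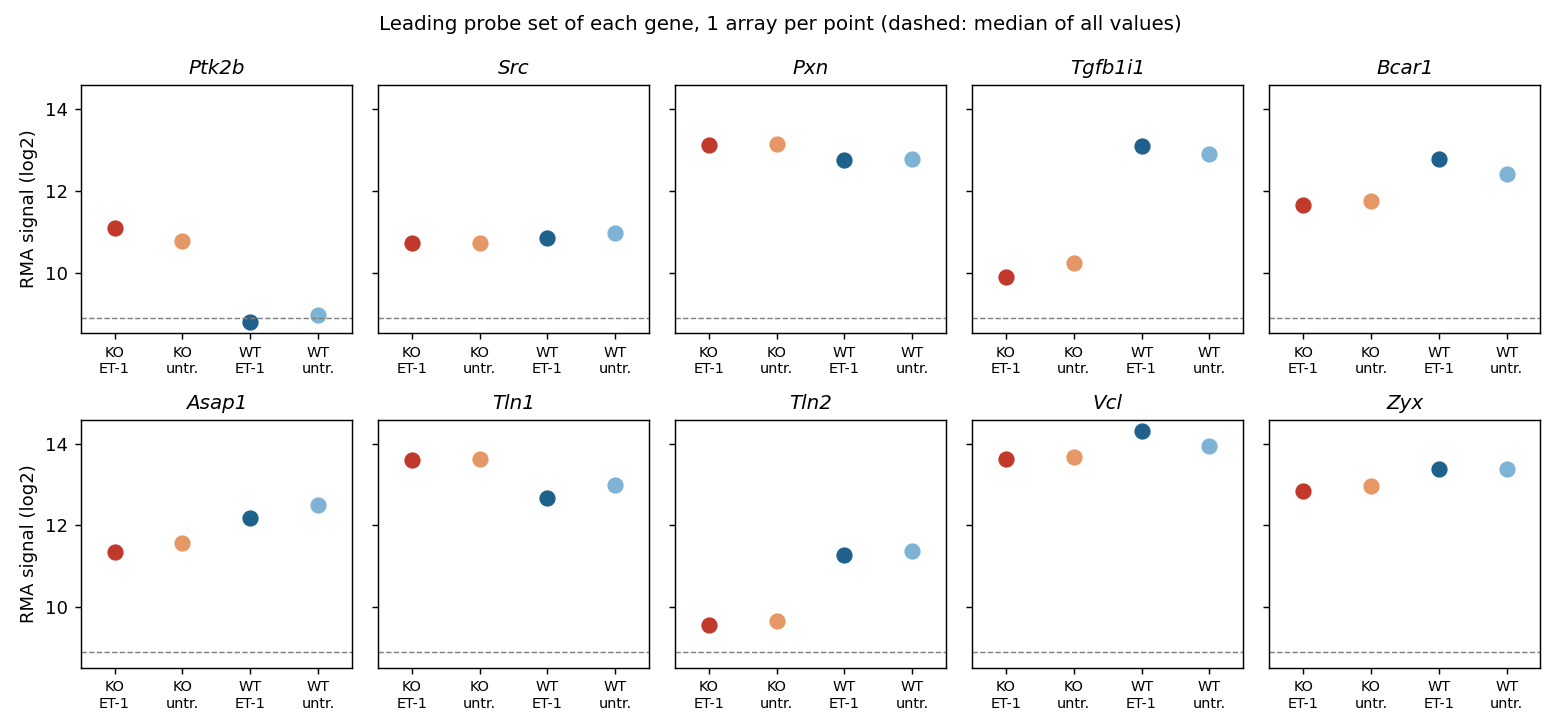
Log2 RMA signal of the leading probe set (highest mean over the 4 arrays) of each of the 10 genes, with 1 point per array and knockout (KO) arrays left of wild-type (WT) arrays. Ptk2b, Pxn and Tln1 read higher in both knockout arrays and the other 7 genes lower, and the dashed line marks the median of all values, log2 8.90.

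Ptk2b had the largest positive difference among the 10 genes. Its leading probe set, 1434653_at, read 11.08 in ET-1-treated and 10.78 in untreated knockout cells, against 8.80 in ET-1-treated and 8.97 in untreated wild type. Both wild-type values lay near the median of all values, and both knockout values lay well above it. The knockout was 4.87-fold higher after ET-1 and 3.50-fold higher untreated. Averaged over treatments the difference was 2.05 ± 0.17 (SE, limma), with an adjusted p of 0.0610 over all 45037 probe sets. The second Ptk2b probe set, 1442927_at, read 8.99 and 9.07 in ET-1-treated and untreated knockout cells, against 8.98 and 8.97 in wild type. It showed a difference of 0.06 ± 0.09, so the Ptk2b difference rests on 1 of 2 probe sets. In wild type 1434653_at (mean 8.89) was dimmer than 1442927_at (mean 8.97), so it is the leading probe set through its knockout values.

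Pyk2 is abundant in blood cells, and 9 haematopoietic markers were therefore set beside Ptk2b. Ptprc, the leukocyte surface phosphatase CD45, read 6.59 and 6.58 in ET-1-treated and untreated knockout cells, against 6.67 and 6.70 in wild type. Spi1, a transcription factor of the myeloid and B lineages, read 8.66 and 8.72 in the knockout, against 8.72 and 8.68 in wild type. In each knockout array 3 of the 9 markers were above the median of all values, against 4 in each wild-type array. Csf1r, the receptor for colony-stimulating factor 1, was the 1 marker at 2-fold or more, at 11.10 and 11.36 in the knockout and 10.04 and 10.24 in wild type. Over all genes 3.3% were higher by as much untreated and 3.94% after ET-1. Of the 9 markers 1, Csf1r, was higher and 3 were lower in both knockout arrays than in both wild-type arrays, against 25.0% and 28.0% of all genes. Among the lower, Cd14 read 8.60 and 8.70 in the knockout, against 9.28 and 9.32 in wild type. The signals of the list summed to 4952 and 5537 in ET-1-treated and untreated knockout cells, against 4205 and 4311 in wild type. Without Csf1r, left out after its values were seen, the other 8 summed to 2753 and 2902 in the knockout, against 3150 and 3098 in wild type. The direction of the sum thus depends on Csf1r, and the part of blood cells in the Ptk2b difference was not tested.

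Src, the kinase that binds activated FAK and Pyk2, differed little. The leading probe set, 1450918_s_at, read 10.72 and 10.73 in ET-1-treated and untreated knockout cells, against 10.84 and 10.96 in wild type, a difference of -0.18 ± 0.13 averaged over treatments (limma adjusted p = 0.577). The other, 1423240_at, read 9.66 and 9.58 in the knockout, against 9.39 and 9.88 in wild type. Its knockout values lay between those of the wild-type arrays.

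The paxillin family members differed in opposite directions. Hic-5, encoded by Tgfb1i1, is a LIM protein related to paxillin that sits at adhesions and also acts as a nuclear receptor coactivator. Its probe set 1418136_at read 9.89 and 10.22 in ET-1-treated and untreated knockout cells, against 13.09 and 12.90 in wild type. This was the largest difference of the 23 probe sets, at 9.20-fold lower after ET-1 and 6.39-fold lower untreated. Averaged over treatments it was -2.94 ± 0.20 (SE, limma, adjusted p = 0.0559). Hic-5 is prominent in smooth muscle, and of 7 smooth muscle markers 4 were lower and 3 higher in both knockout arrays than in both wild-type arrays. Over all genes by leading probe set these shares were 28.0% and 25.0%. Among the 7 markers, the calponin Cnn1 read 9.45 and 9.91 in the knockout, against 12.48 and 12.17 in wild type. Smtn, which encodes smoothelin, read 11.70 and 11.42 in the knockout, against 9.89 and 10.52 in wild type. Myh11, the smooth muscle myosin heavy chain, counts among the lower, though it read 7.74 to 7.85 in all 4 arrays. The list summed to 40182 and 39317 on the linear scale in the knockout, against 64245 and 57633 in wild type. That sum mostly follows the 2 brightest markers, both lower in the knockout. Acta2 read 14.6 in both knockout arrays, against 15.1 and 15.0 in wild type. Tagln read 13.36 and 13.28, against 14.45 and 14.15. The part of such markers in the Tgfb1i1 difference was not tested.

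The gene of paxillin itself, the adaptor that docks FAK, Pyk2 and vinculin, had a slightly higher signal. The leading Pxn probe set, 1456135_s_at, read 13.12 and 13.15 in ET-1-treated and untreated knockout cells, against 12.74 and 12.77 in wild type, a difference of 0.38 ± 0.12 (limma adjusted p = 0.266). The groups did not overlap for it or for 1424027_at, which read 11.11 and 11.04 in the knockout, against 10.29 and 10.77 in wild type. The third, 1426085_a_at, read between 7.84 and 8.25 in all arrays, below the median of all values, and its groups overlapped. The Pxn difference exceeded the Tgfb1i1 difference by 3.05 untreated and by 3.58 after ET-1 on the log2 scale.

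The signalling scaffolds Bcar1 and Asap1 were lower in the knockout. Bcar1 encodes p130Cas, a docking protein that FAK and Src phosphorylate. Its leading probe set, 1439388_s_at, read 11.66 and 11.74 in ET-1-treated and untreated knockout cells, against 12.76 and 12.40 in wild type, a difference of -0.88 ± 0.18 (limma adjusted p = 0.156). The second, 1450622_at, read 9.91 and 10.07 in the knockout, against 10.10 and 10.60 in wild type, where the highest knockout value lay just under the lowest wild-type value. Asap1 encodes an Arf GTPase-activating protein that binds FAK and Src. For Asap1, 1425572_a_at read 11.34 and 11.58 in ET-1-treated and untreated knockout cells, against 12.19 and 12.49 in wild type, a difference of -0.88 ± 0.13 (limma adjusted p = 0.104). Probe set 1435059_at gave a difference nearly as large as that of talin-2, with 10.97 and 10.72 in the knockout and 12.47 and 12.37 in wild type. That is 2.82-fold lower after ET-1 and 3.15-fold lower untreated (-1.58 ± 0.14, limma adjusted p = 0.0621). The dim probe set 1425573_a_at read 8.81 and 8.95 in the knockout, against 8.96 and 9.24 in wild type.

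**Figure D2:**
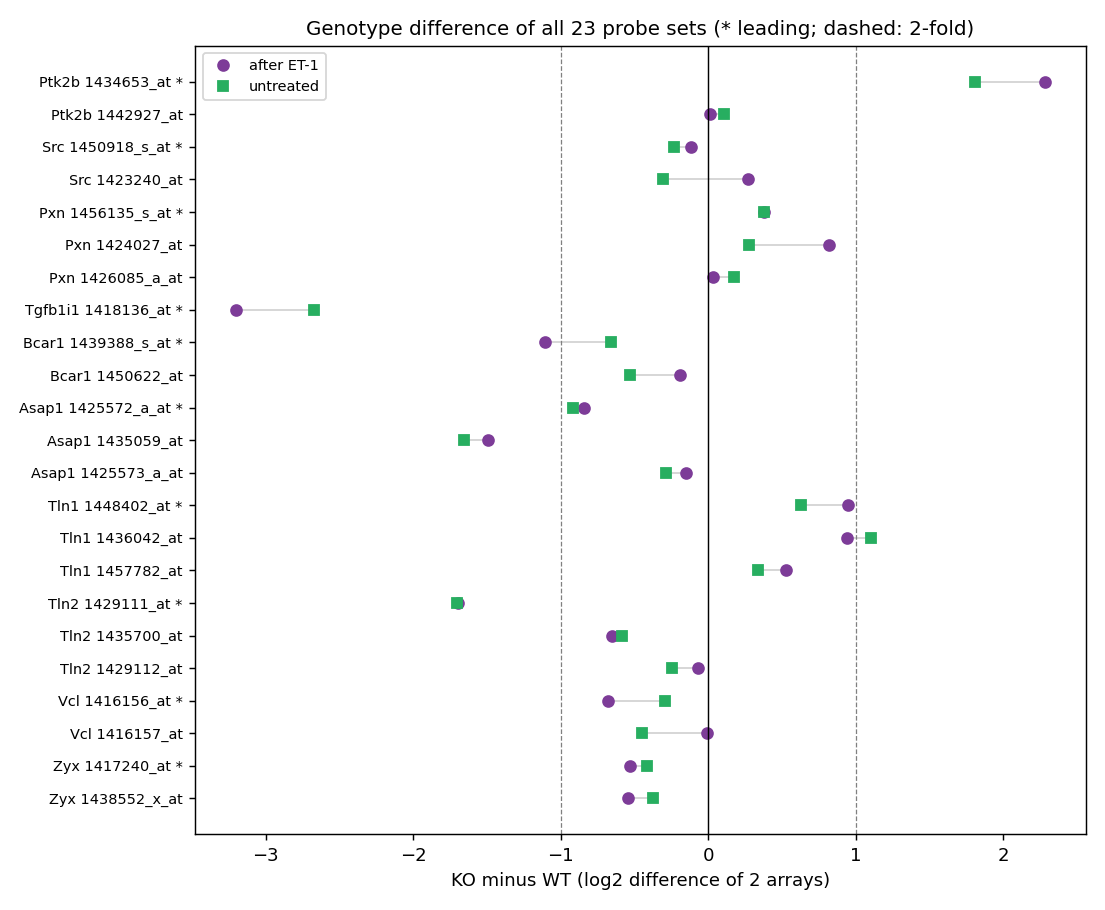
Knockout (KO) minus wild-type (WT) log2 difference of each of the 23 probe sets after ET-1 (circles) and untreated (squares), each the difference of 2 arrays, with dashed lines at 2-fold and leading probe sets starred. The probe sets of Ptk2b, Pxn and Tln1 lie right of 0 and those of Tgfb1i1, Bcar1, Asap1, Tln2, Vcl and Zyx left of 0, while the dimmer Src probe set lies on both sides.

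The genes of the talins, large proteins that activate integrins and tie them to actin, also differed in opposite directions. For Tln1, the broadly expressed talin-1, the leading probe set 1448402_at read 13.60 and 13.62 in ET-1-treated and untreated knockout cells, against 12.66 and 12.99 in wild type (0.79 ± 0.15, limma adjusted p = 0.138). The second, 1436042_at, read 10.85 and 10.93 in the knockout, against 9.91 and 9.83 in wild type, which was 1.92-fold higher after ET-1 and 2.15-fold higher untreated (1.02 ± 0.13, limma adjusted p = 0.0846). The third, 1457782_at, was below the median of all values in every array, at 8.25 and 8.22 in the knockout and 7.72 and 7.89 in wild type. All 3 placed both knockout arrays above both wild-type arrays.

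Tln2 encodes talin-2, the relative found mostly in muscle and brain. Its leading probe set 1429111_at read 9.58 and 9.67 in ET-1-treated and untreated knockout cells, against 11.28 and 11.38 in wild type. The knockout was 3.24-fold lower after ET-1 and 3.25-fold lower untreated, and the averaged difference was -1.70 ± 0.12 (limma adjusted p = 0.0569). The other Tln2 probe sets had smaller differences of the same sign, at -0.62 ± 0.08 for 1435700_at and -0.16 ± 0.08 for 1429112_at, whose values of 7.83 to 8.07 were all below the median of all values. The Tln1 difference exceeded the Tln2 difference by 2.33 untreated and by 2.64 after ET-1 on the log2 scale.

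The genes of the actin-linking proteins vinculin and zyxin had signals that were lower in the knockout by less than 2-fold. Vcl, which encodes the talin-binding linker vinculin, read 13.63 and 13.66 for 1416156_at in ET-1-treated and untreated knockout cells, against 14.31 and 13.95 in wild type (-0.49 ± 0.15, limma adjusted p = 0.266). The dim 1416157_at read 7.68 and 7.86 in the knockout, against 7.69 and 8.31 in wild type, and its groups overlapped. Zyx, which encodes the tension-sensitive LIM protein zyxin, read 12.84 and 12.96 for 1417240_at in ET-1-treated and untreated knockout cells, against 13.37 and 13.37 in wild type (-0.47 ± 0.12, limma adjusted p = 0.208). Its second probe set, 1438552_x_at, read 10.20 and 10.22 in the knockout, against 10.75 and 10.59 in wild type. Both Zyx probe sets kept the genotypes apart, at -0.46 to -0.47 on average.

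Promoter sequence is shown for the actin-linking members for which the RefSeq table (GRCm38.p6) holds a window. They were chosen with their genotype differences known, since Tln1 was higher and Vcl and Zyx were lower in the knockout. RefSeq windows matched 5 of the 10 genes (Src, Tln1, Zyx, Bcar1 and Vcl), and not Ptk2b, Pxn, Tgfb1i1, Asap1 or Tln2. The 250 bases before the start were searched for the CArG box, the motif of serum response factor, and for TGANTCA, the AP-1 motif. Both motifs read the same on either strand. The CArG box occurs in 1.47% and TGANTCA in 6.75% of all 32851 such windows. Capitals mark a match, which is a description of these letters and not a tested site. The windows are chr14:20929148-20929397 on the plus strand for Vcl, chr6:42349578-42349827 on the plus strand for Zyx and chr4:43562584-43562833 on the minus strand for Tln1.
Vcl: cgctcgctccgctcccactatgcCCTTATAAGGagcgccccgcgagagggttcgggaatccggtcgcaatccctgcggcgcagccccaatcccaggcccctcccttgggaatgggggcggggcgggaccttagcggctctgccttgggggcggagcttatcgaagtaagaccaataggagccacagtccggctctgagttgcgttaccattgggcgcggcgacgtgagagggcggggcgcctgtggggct
Zyx: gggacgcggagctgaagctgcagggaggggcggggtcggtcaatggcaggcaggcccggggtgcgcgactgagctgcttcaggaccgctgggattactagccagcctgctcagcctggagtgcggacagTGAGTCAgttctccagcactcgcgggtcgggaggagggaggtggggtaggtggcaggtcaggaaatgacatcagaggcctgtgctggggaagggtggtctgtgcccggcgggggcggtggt
Tln1: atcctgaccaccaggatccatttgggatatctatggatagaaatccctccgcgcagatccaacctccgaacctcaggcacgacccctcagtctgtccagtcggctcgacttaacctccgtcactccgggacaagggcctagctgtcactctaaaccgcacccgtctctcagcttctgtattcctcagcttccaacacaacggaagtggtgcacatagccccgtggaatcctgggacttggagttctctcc
The Vcl window held 1 CArG box, which begins 227 bases before the start and does not overlap another match. The Zyx window held 1 TGANTCA match, which begins 121 bases before the start. No match was found in the Tln1 window shown or in the Src and Bcar1 windows. Bcar1 was lower in the knockout, as Vcl and Zyx were. A relation between these motifs and the direction of the difference was not tested.

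The genotype comparison was tested with an additive model of genotype and treatment by limma, which leaves 1 residual degree of freedom, the term for a genotype difference that depends on treatment. No probe set passed it after adjustment over all 45037 probe sets (0 of 23 members, against 0.0% of all, lowest adjusted p = 0.0533 overall and 0.0559 among members). At an unadjusted p under 0.05 there were 14 of the 23, against 18.5% of all probe sets. The outcome depended on the features tested and on scaling. With 1 leading probe set per gene (18193 genes, of which 3.94% passed as higher and 4.28% as lower in the knockout), Ptk2b passed as higher (limma adjusted p = 0.0144), and Tgfb1i1 (0.0130) and Tln2 (0.0135) passed as lower. The Ptk2b probe set leads through its high knockout values, so its choice is not independent of the difference tested. The other Ptk2b probe set had a difference of 0.06. Over the 7 alternatives run, the adjusted p ranged from 0.0111 to 0.0780 for Ptk2b, from 0.00846 to 0.0728 for Tgfb1i1 and from 0.0123 to 0.0728 for Tln2, and each passed in 6. With array medians subtracted 2 of 23 passed as higher and 3 as lower (2.79% and 2.91% of all), and with quantile normalization 1 and 3 did (1.77% and 2.03%). Among probe sets whose highest value was above the median of all values, 2 of 19 passed as higher and 3 as lower (2.51% and 2.67%), and among those whose mean was above it 1 and 3 of 18 did (2.29% and 2.33%). The 1 higher there, Ptk2b 1434653_at, met the filter on the mean only through its knockout arrays (mean 10.93). Its wild-type mean (8.885) lay under the cutoff (8.898), so that pass is not separate support for the difference. With the mean of a gene's probe sets 2 of 10 passed as higher, Ptk2b and Tln1, and 3 as lower, Tgfb1i1, Tln2 and Asap1 (5.3% and 5.33%). That mean moved the averaged difference to 1.05 for Ptk2b and to -0.82 for Tln2, from 2.05 and -1.70 by the leading probe sets. Without an intensity trend in limma 0 passed. These p-values set a difference against that single term, joined by limma with a prior drawn from all features tested. They do not measure a spread between cultures, since no culture was repeated.

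ET-1 went with small differences in the 10 genes. None of the 23 probe sets differed by 2-fold after ET-1 in the knockout, against 0.875% of all probe sets, or in wild type, against 1.63%, and at 1.5-fold 1 was lower in wild type, against 3.69%. The differences ran from -0.37 to 0.30 in the knockout and from -0.62 to 0.36 in wild type on the log2 scale, with medians of -0.08 and -0.10. Ptk2b differed by 0.30 in the knockout and by -0.18 in wild type for its leading probe set. Tgfb1i1 differed by -0.33 in the knockout and by 0.20 in wild type. For the leading probe set of Tln2 the differences were -0.10 in both genotypes, and for that of Pxn they were -0.03 in both.

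Probe sets of the same gene differed in opposite directions after ET-1 in 6 of the 9 genes with several, in each genotype. In the knockout these were Ptk2b, Src, Pxn, Asap1, Tln1 and Tln2, and in wild type Ptk2b, Bcar1, Asap1, Tln1, Vcl and Zyx. Some of these differences were near 0, such as 0.01 for Ptk2b 1442927_at in wild type and -0.01 for Src 1450918_s_at in the knockout. The share over all such genes was not taken, so these counts have no background. The widest ranges were those of Bcar1 and Vcl in wild type. For Bcar1, 1439388_s_at differed by -0.09 in the knockout and by 0.36 in wild type, whereas 1450622_at differed by -0.15 in the knockout and by -0.50 in wild type. For Vcl, 1416156_at differed by -0.03 in the knockout and by 0.36 in wild type, whereas 1416157_at differed by -0.18 in the knockout and by -0.62 in wild type, the largest of all. The range over the probe sets of a gene was 0.07 in the knockout and 0.86 in wild type for Bcar1, and 0.145 in the knockout and 0.97 in wild type for Vcl. Ptk2b (0.38 in the knockout and 0.19 in wild type), Asap1 (0.49 in the knockout and 0.40 in wild type) and Tln2 (0.21 in the knockout and 0.07 in wild type) had the wider range in the knockout. Of the 9 genes with several probe sets, the other 6 had it in wild type, a share near the 69.6% of all 9010 such genes. The wild-type array after ET-1, which had the large Gapdh gap, enters each wild-type value, and its part in them was not tested.

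By limma, 0 of the 23 probe sets passed for ET-1 averaged over genotypes, against 0.0% of all 45037 (lowest adjusted p = 0.826), and 1 had an unadjusted p under 0.05, against 4.39% of all. That probe set was the dim Pxn 1426085_a_at (-0.31 ± 0.07, limma adjusted p = 0.826). No member reached 2-fold when its ET-1 difference in wild type was subtracted from that in knockout cells, against 3.25% of all probe sets, and the members' values ran from -0.53 for Tgfb1i1 to 0.58 for Src 1423240_at.

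**Figure D3:**
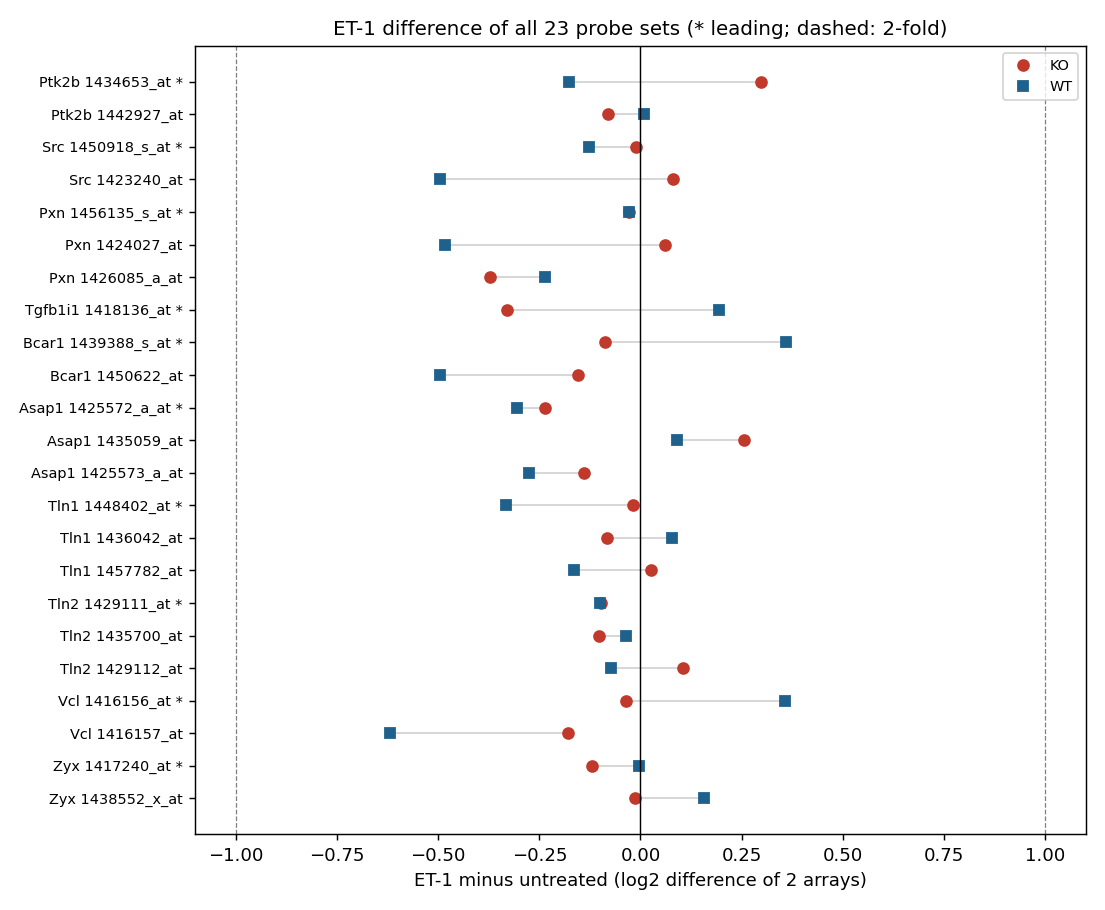
ET-1 minus untreated log2 difference of each of the 23 probe sets in knockout (KO, circles) and wild-type (WT, squares) cells, each the difference of 2 arrays, with dashed lines at 2-fold and leading probe sets starred. All points lie inside 2-fold, and the widest gaps within a gene are in wild type for Bcar1 and Vcl.

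Of 77 other adhesion genes grouped by role, 69 had a probe set of their own. Both knockout arrays lay below both wild-type arrays for 27 of them (39.1%, against 28.0% of genes by leading probe set) and above for 15 (21.7%, against 25.0%). Their median difference was -0.12 untreated and -0.07 after ET-1, against 0.01 and -0.03 over all genes. At 2-fold or more, 4 were higher and 4 lower in the untreated knockout (3.3% and 3.25% of genes), and 5 and 5 after ET-1 (3.94% and 4.7%). By limma over all probe sets, 0 of the 69 passed. With 1 leading probe set per gene, an alternative chosen after seeing the data, Bcar3 and Kank1 passed as higher and Lpp, Fblim1, Tns2, Parvb, Rsu1, Palld and Arap2 as lower, against 3.94% and 4.28% of all genes.

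The largest difference in each role list gives the scale. Among talin and vinculin partners it was Kank1, which binds talin and guides microtubules to adhesions. Kank1 read 12.54 and 12.50 in ET-1-treated and untreated knockout cells, against 10.09 and 10.17 in wild type, while the other 11 of that list were within 2-fold. Among Cas and Crk adaptors it was Bcar3, a partner of p130Cas, at 11.44 and 11.40 in the knockout and 8.87 and 9.42 in wild type. In the zyxin family it was Fblim1 (migfilin), which binds filamin, at 9.00 and 8.98 in the knockout and 11.45 and 11.22 in wild type. All 3 were named for the size of their genotype difference, so that size (1.98 or more on the log2 scale) follows from the choice.

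In the complex of ILK, PINCH and parvin, which joins integrins to actin, the largest difference was that of beta-parvin. Parvb read 7.88 and 8.54 in ET-1-treated and untreated knockout cells, against 9.96 and 10.70 in wild type. The list median was -0.41 untreated and -0.74 after ET-1, and 5 of 7 genes were lower in both knockout arrays than in both wild-type arrays and 0 higher, against 28.0% and 25.0% of all genes. Among actin linkers it was palladin (Palld), a crosslinker of stress fibres, at 11.86 and 11.73 in the knockout and 13.14 and 12.72 in wild type. There 5 of 11 genes were lower in both knockout arrays and 0 higher, against the same 28.0% and 25.0%. The other lists had genes on both sides. Higher and lower were 4 and 2 of 7 paxillin partners, 3 and 2 of 12 talin and vinculin partners and 3 and 3 of 7 Arf GTPase-activating proteins. They were 2 and 2 of 8 Cas and Crk adaptors, 1 and 3 of 6 zyxin family genes and 2 and 5 of 11 kinases, phosphatases and regulators.

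Among Arf GTPase-activating proteins, Asap2, the closest relative of Asap1, read 11.93 and 10.89 in ET-1-treated and untreated knockout cells, against 9.32 and 9.49 in wild type, a difference opposite in sign to that of Asap1. Arap2, another protein of this class, read 9.92 and 9.68 in the knockout, against 11.19 and 11.19 in wild type. Among paxillin partners the largest difference was that of the SH2 and SH3 adaptor Nck2, at 11.98 and 11.73 in the knockout and 10.98 and 10.01 in wild type. Among kinases, phosphatases and regulators the largest averaged difference (-0.53) was that of Ptpn12, the phosphatase PTP-PEST that acts on p130Cas, at 13.32 and 13.20 in the knockout and 13.84 and 13.73 in wild type. The phosphatase gene Ptpn11 was close to it on average (-0.52) and had the larger difference after ET-1 (-0.73, against -0.52 for Ptpn12). No gene of that list of 11 reached 2-fold in either treatment state.

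**Figure D4:**
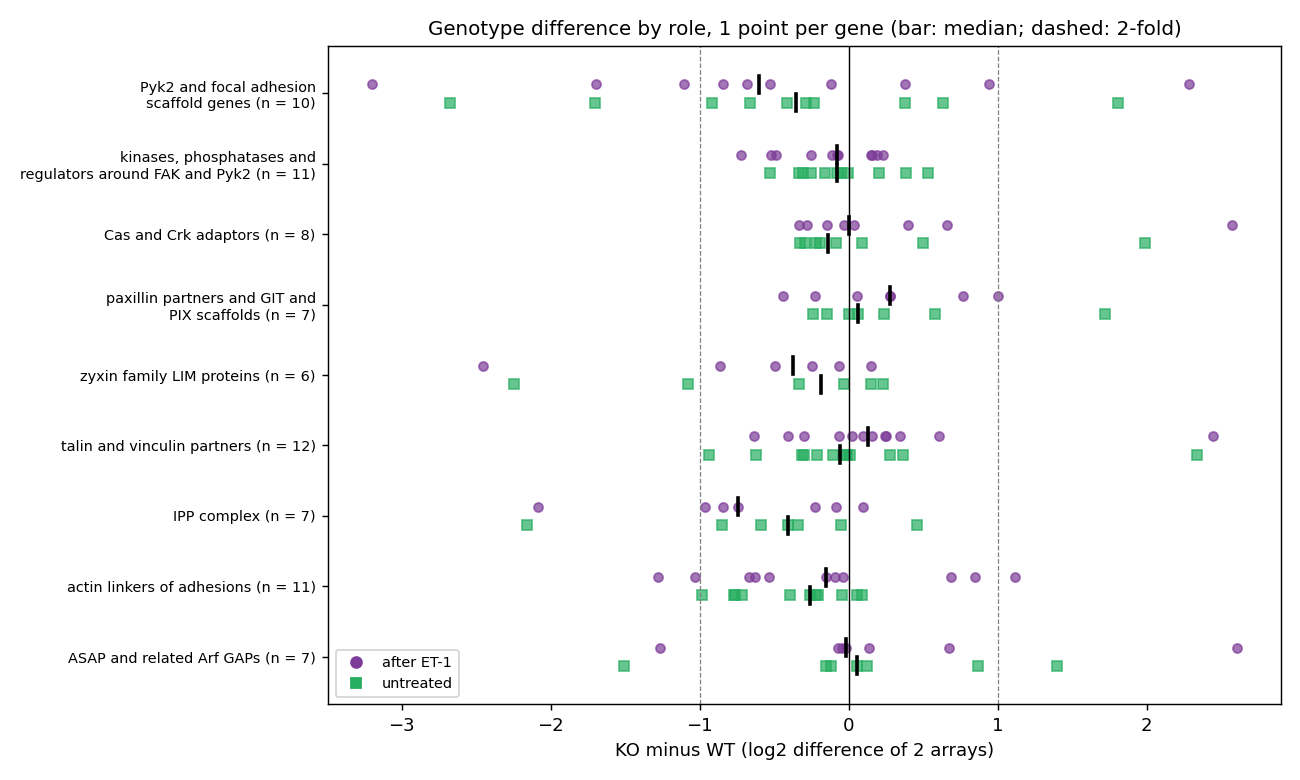
Knockout (KO) minus wild-type (WT) log2 difference after ET-1 (circles) and untreated (squares) for the leading probe sets of the 10 genes and of the 69 other adhesion genes by role, with black bars at the medians and dashed lines at 2-fold. Most genes lie inside 2-fold, and Kank1, Bcar3, Asap2, Nck2, Fblim1, Parvb and Arap2 stand outside it in both states with Ptk2b, Tgfb1i1 and Tln2.

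The genes with the profile most like each of Ptk2b, Tgfb1i1 and Tln2 were found by the root mean square difference of mean-centred log2 values over the 4 arrays, among 11169 other genes. These 3 members were taken because they passed with 1 value per gene, a choice made after their values were seen. For Ptk2b the nearest were Sirpa, a receptor for CD47, at 0.04, Filip1, a filamin-interacting protein, at 0.04 and Igsf9, an immunoglobulin superfamily member, at 0.06. For Tgfb1i1 they were the homeobox gene Rhox5 at 0.08, the transporter gene Slco4a1 at 0.08 and the transcription factor gene Mecom at 0.08. For Tln2 they were pleiotrophin (Ptn) at 0.04, the tyrosine phosphatase gene Ptpre at 0.05 and Deptor, an mTOR-binding protein, at 0.06. With 4 arrays such a profile is mainly the size of the genotype difference.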

How the data were processed

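Each of the 4 groups was measured on 1 Affymetrix Mouse Genome 430 2.0 array, and per the labels' protocols 100 ng of total RNA was amplified and biotin-labelled in 2 cycles. The authors deposited log2 values per probe set, made with RMA per the submitters' processing notes, with version, annotation and build not given in the sources used here. The table holds 45101 probe sets, and 64 control probe sets were left out of the tests. In the platform annotation 34958 probe sets carry 1 gene symbol and 932 carry several, and names were checked by Entrez identifier against RefSeq (GRCm38.p6), with 0 updates.

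No low values were filtered, so that every member was tested. Limma 3.58.1 (R 4.3.3, lmFit, eBayes with trend) fitted genotype and treatment additively to all 4 arrays, with Benjamini-Hochberg adjustment over 45037 probe sets at 0.05. The fit was tested on simulated data with independent noise, for the sign and size of known differences. Those data hold no array-wide difference such as the Gapdh gap. Standard errors (SE) come from 1 residual degree of freedom plus a prior of 2.097, so the number of arrays limits the precision. Alternatives changed the filter, the scaling, the trend and the summary per gene. Python 3.11.15, numpy 2.4.6, pandas 2.3.3 and matplotlib 3.10.9 did the rest.

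The members and lists were chosen with earlier results of these data known. All probe sets of the 10 members are given, each gene led by its brightest, with the largest difference of each role list. The rule named likeness only for members that passed over all probe sets, which none did.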

Additional observations from a re-analysis of the deposited data

Results flagged for a closer look

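For 4 of the 10 leading probe sets the ET-1 minus untreated difference had opposite signs in the genotypes, and this was not tested because each group has 1 array. The knockout difference exceeded the wild-type difference by 0.48 on the log2 scale for Ptk2b (0.30 in the knockout and -0.18 in wild type). For Tgfb1i1 it was -0.53 (-0.33 in the knockout and 0.20 in wild type), for Bcar1 -0.45 (-0.09 in the knockout and 0.36 in wild type) and for Vcl -0.39 (-0.03 in the knockout and 0.36 in wild type). The second probe sets went the other way, at -0.09 for Ptk2b, 0.34 for Bcar1 and 0.44 for Vcl, and Tgfb1i1 has 1 probe set. The wild-type array after ET-1, with a Gapdh gap of 3.79 (log2), enters each of these values, and its part was not tested. Opposite signs occurred in 46.149% of all probe sets.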

How the results depend on the processing

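The genotype difference averaged over treatments and the untreated one kept their direction for each of the 23 probe sets under the alternatives run for it. The difference after ET-1 turned sign for Ptk2b 1442927_at (-0.0025 with medians subtracted, -0.0076 with quantile normalization, 0.01 as deposited) and Vcl 1416157_at (0.0117 with quantile normalization, -0.01 as deposited). The number passing the limma test varied. Against 0 higher and 0 lower over all probe sets, the members passing were 2 higher and 3 lower with a filter on the highest value or with array medians subtracted, 1 and 3 with a filter on the mean or with quantile normalization, 1 and 2 with the leading probe set per gene, 2 and 3 with probe sets averaged per gene, and 0 and 0 without trend. Of the other adhesion genes, against 0 and 0, 2 higher and 3 lower passed with the filter on the highest value, 3 and 6 with medians subtracted, 2 and 5 with quantile normalization, 4 and 7 with the mean per gene and 2 and 7 with the leading probe set per gene. The filters and the values per gene test fewer features, and for the scalings the cause was not tested. At 1.5-fold, 5 probe sets were lower in the untreated knockout (3 at 2-fold), 4 higher and 7 lower in the knockout after ET-1 (1 and 4 at 2-fold), and 1 lower after ET-1 in wild type (0 at 2-fold). The count higher in the untreated knockout was 3 at 1.5-fold (2 at 2-fold). With quantile normalization 2 were at 2-fold or more higher in the knockout after ET-1 (1 as deposited) and 4 lower untreated (3 as deposited), with Asap1 1425572_a_at added at -1.0031. The ET-1 difference averaged over genotypes, which passed for 0 probe sets under every setting, turned sign with probe sets averaged per gene for Bcar1 (-0.0943 averaged, 0.14 by the leading probe set), Vcl (-0.12, 0.16) and Zyx (0.0049, -0.06), and for Tln1 1436042_at with medians subtracted (0.008, -0.00 as deposited). Leaving out an array would leave no residual degree of freedom and was not run. No paired analysis was possible because each group has 1 array. No alternative separates variation between cultures from genotype.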
